A study of Mus musculus with 10 samples.

Results

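Lipid-associated macrophages are macrophages that gather around enlarged or dying adipocytes in obese fat and take up and break down their lipid. Genes that mark them were followed here in epididymal white adipose tissue (eWAT), the fat pad along the epididymis: *Trem2*, *Tyrobp*, *Itgax*, *Cd9*, *Cd63*, *Gpnmb*, *Spp1*, *Lgals3*, *Lipa* and *Fabp5*. They were chosen by name, as 10 of the 34797 gene symbols on the array, and every probe with 1 of these symbols was taken. These genes and the marker lists below were chosen with earlier results of these data known. Their counts set against all probes are therefore descriptions and no independent support. All 10 were among the 20211 symbols counted as expressed, which means that the mouse RNA was well above background on at least 5 arrays.

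TREM2 is a receptor at the macrophage surface that binds lipids and lipoproteins. It has no signalling tail of its own and passes its signal through the adaptor TYROBP, also called DAP12, which is shared with other receptors. Cells that carry this receptor in fat are known for lysosomal lipid breakdown, for surface and secreted glycoproteins and for fatty acid binding proteins. Several of the 10 genes are also used by other cells: *Itgax* by dendritic cells, and *Cd9*, *Cd63* and *Fabp5* by many cell types.

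The 10 mice formed 1 group. They were male wildtype C57BL/6JOlaHsd mice, 9 weeks old at the start, which received a low fat diet for 3 weeks and then a high fat diet (HFD) for 12 weeks at 29°C. Desferrioxamine (DFO), a compound that binds iron, was injected daily at 100 mg/kg for 5 days, and the mice were killed on day 6 after 2 h without food. RNA of each mouse was labelled with Cy5, and a pool of RNA of all mice of the wider study, controls included, carried Cy3 and was hybridised with every mouse. The pool is a reference and no control group, and the dyes were not swapped. The log2 ratio of mouse over pool can therefore be compared between mice for a probe, but neither its distance from 0 nor an effect of DFO could be tested. Mice are named by their replicate number, and the pairs 1 and 2, 3 and 4, 5 and 6, 7 and 8, and 9 and 10 shared a slide. The p-values rest only on these mice, each on 1 array, so spread between mice is not separated from spread of handling and arrays.

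Each array had a median Cy5 signal of 54.8 to 81.3 with a local background of 32 to 37 (median), and no spot was saturated. As a check of the tissue, all 8 adipocyte markers were expressed, and 5 secretory genes of the epididymis (*Lcn5*, *Lcn8*, *Defb1*, *Crisp1* and *Adam7*) were not. The sperm genes *Prm1*, *Prm2* and *Tnp1* were well above background in the mouse RNA on 8, 10 and 9 arrays. Mice 4, 5, 6 and 7 stood apart from the rest in the members and in the adipocyte markers. Every slope over mice is therefore given for all 10 mice and for the other 6 (mice 1, 2, 3, 8, 9 and 10), a subset that was chosen after the values had been seen.

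Each of the 10 genes had 1 probe with 1 spot, well above background in both colours on all 10 arrays. Probe positions are on the mouse genome build mm9. The *Trem2* probe lies at chr17:48491537-48491596, that of *Gpnmb* at chr6:49006386-49006445 and that of *Spp1* at chr5:104868502-104868561. Those of *Itgax* (chr7:135294052-135294111), *Cd9* (chr6:125410387-125410446), *Cd63* (chr10:128349813-128349872), *Lgals3* (chr14:48005414-48005473), *Lipa* (chr19:34567717-34567776) and *Fabp5* (chr3:10016185-10016244) likewise match 1 unbroken stretch of 60 bases. Which part of each transcript these stretches belong to was not determined, since no mm9 annotation was used here. The *Tyrobp* probe is shown because it reads the signalling end of the adaptor. Its 60 bases match a span of 1728 bases, chr7:31200651-31202378, so that it crosses an intron. Capitals mark the codons that open the tyrosine-based activation motif, through which TYROBP recruits the kinase SYK.
*Tyrobp* probe: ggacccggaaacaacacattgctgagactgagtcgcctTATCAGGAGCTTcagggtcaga

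Promoters are shown for the receptor *Trem2* and the secreted *Spp1*. *Spp1* was the member closest to *Trem2* by the measure given below, though not in the log ratio of the scanner software. The sequences are the 250 bases before the start in RefSeq on GRCm38.p6, and both lie on the plus strand. Capitals mark GAGGAAG or its reverse complement, the core letters of a site for PU.1, a transcription factor of macrophages.
*Trem2*, chr17:48346151-48346400: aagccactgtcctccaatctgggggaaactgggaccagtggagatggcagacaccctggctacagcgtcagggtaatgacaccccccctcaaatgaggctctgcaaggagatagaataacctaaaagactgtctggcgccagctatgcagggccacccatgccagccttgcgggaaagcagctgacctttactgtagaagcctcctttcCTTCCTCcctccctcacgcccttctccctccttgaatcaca
*Spp1*, chr5:104434861-104435110: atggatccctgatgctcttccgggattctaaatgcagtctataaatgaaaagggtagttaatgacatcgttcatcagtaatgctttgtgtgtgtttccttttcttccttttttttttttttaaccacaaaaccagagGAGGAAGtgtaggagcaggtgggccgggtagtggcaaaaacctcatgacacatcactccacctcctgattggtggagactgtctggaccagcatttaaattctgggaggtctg

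The match lay 41 bases before the *Trem2* start and 113 bases before the *Spp1* start shown. RefSeq windows were found for 8 of the 10 genes (9 windows, since *Spp1* has 2 starts), and not for *Fabp5* and *Tyrobp*. GAGGAAG was found on either strand in 4 of these 9 windows, those of *Spp1*, *Cd63*, *Trem2* and *Lipa*, and in 10.6% of all 32851 promoter windows. For *Spp1* this was only the window shown, and the one at its other start, chr5:104435942-104436191, had no match. The AP-1 site TGACTCA was found in the window of *Itgax* and in 4.46% of all windows. ACGTG, the core of a site for hypoxia inducible factors, was found in the window of *Cd63* and in 16.6% of all. CACGTG and TCATGTG, letters bound by the lysosomal regulators TFEB and MITF, were in none of the 9 windows, against 6.02% and 3.25% of all. CACGTG contains ACGTG. These are matches of letters only.

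*Trem2* had log2 ratios of -1.02, 0.10, -0.57, 1.52, 1.29, 1.10, 1.49, -1.04, -2.44 and -1.88 in mice 1 to 10. Mice 4 to 7 were the highest and mice 9 and 10 the lowest, with no overlap between mice 4 to 7 and the other 6. The lowest and highest mouse differed 15.5-fold. The mean was -0.15 ± 1.46 (SD, n = 10), and the Cy5 signal ran from 5313 in mouse 9 to 88660 in mouse 7. In fat tissue as a whole, more cells of a type and more RNA per cell cannot be told apart.

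*Tyrobp* had log2 ratios of -0.70, -0.21, -0.38, 1.01, 1.01, 0.86, 1.06, -0.80, -1.49 and -1.20 in mice 1 to 10. The order resembled that of its receptor with a narrower range, 5.88-fold between mouse 9 and mouse 7.

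**Figure D1:**
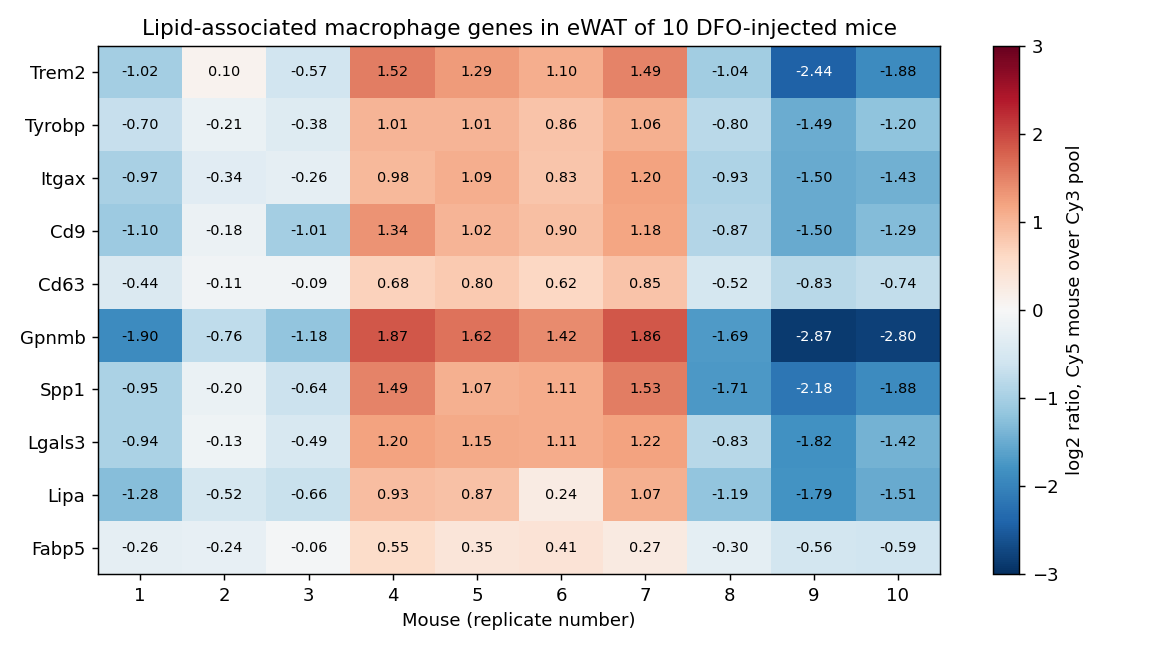
Log2 ratio of mouse (Cy5) over pool (Cy3) for the 10 genes (rows) in each of 10 DFO-injected mice (columns), with blue below and red above the pool. Mice 4 to 7 hold the highest values in every row, from 0.24 for *Lipa* in mouse 6 to 1.87 for *Gpnmb* in mouse 4, and mice 9 and 10 the lowest.

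Among the surface proteins, *Gpnmb*, a transmembrane glycoprotein of lysosome-rich macrophages, spanned the widest range of the 10 genes. Its log2 ratios were -1.90, -0.76, -1.18, 1.87, 1.62, 1.42, 1.86, -1.69, -2.87 and -2.80 in mice 1 to 10. Mouse 4 exceeded mouse 9 by 26.7-fold, and the lowest of mice 4 to 7 lay 2.18 above the highest of the other 6 on the log2 scale, the widest such gap of the 10 genes. *Itgax*, which codes for the integrin CD11c, ran from -1.50 in mouse 9 to 1.20 in mouse 7 with a median of -0.30. *Cd9*, a tetraspanin of the cell membrane, ran from -1.50 in mouse 9 to 1.34 in mouse 4 with a median of -0.53. *Cd63*, a tetraspanin of late endosomes and lysosomes, had a narrower range, from -0.83 in mouse 9 to 0.85 in mouse 7 with a median of -0.10. In each of these genes mice 4 to 7 did not overlap with the rest.

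Both secreted members varied widely. *Spp1*, which codes for the matrix protein osteopontin, had log2 ratios of -0.95, -0.20, -0.64, 1.49, 1.07, 1.11, 1.53, -1.71, -2.18 and -1.88 in mice 1 to 10. Mouse 8 was closer to mice 9 and 10 here than in *Trem2*, and the range was 13.1-fold. *Spp1* had the lowest Cy5 signal of the members, 165 in mouse 9, and its range depends on the processing. In the log ratio of the scanner software it ran from -2.82 in mouse 9 to 1.76 in mouse 4. *Lgals3*, which codes for the sugar-binding galectin-3, ran from -1.82 in mouse 9 to 1.22 in mouse 7, an 8.19-fold range. Part of this range lies in the pool's colour, whose log2 signal was 16.563 with mouse 9 and 15.455 with mouse 7.

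The 2 genes of lipid handling differed in range. *Lipa*, the acid lipase of the lysosome, had log2 ratios of -1.28, -0.52, -0.66, 0.93, 0.87, 0.24, 1.07, -1.19, -1.79 and -1.51 in mice 1 to 10. Mouse 6 lay below mice 4, 5 and 7 by more than in any other member, though still above the other 6 mice. *Fabp5*, which codes for a fatty acid carrier of the cytosol, had log2 ratios of -0.26, -0.24, -0.06, 0.55, 0.35, 0.41, 0.27, -0.30, -0.56 and -0.59. It had the narrowest range of the members, 2.21-fold, and the smallest gap between mice 4 to 7 and the rest, 0.33. Even so, its SD of 0.41 was above that of 85.8% of the 27718 expressed probes, whose median SD was 0.18.

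The 4 highest values lay in mice 4 to 7 for 10 of the 10 genes, against 17.9% of all expressed probes, and in another 21.3% of probes these mice held the 4 lowest values. Since these mice were singled out from the values, this is a description. The gap was above 0 for all 10 genes also without background subtraction, with median centring, in the log ratio of the scanner software and in the deposited normalized values. Within the slide of mice 3 and 4, mouse 4 was higher by 0.61 (*Fabp5*) to 3.05 (*Gpnmb*) on the log2 scale. Within the slide of mice 7 and 8, mouse 7 was higher by 0.56 (*Fabp5*) to 3.55 (*Gpnmb*). The direction of both differences was fixed by the choice of mice 4 to 7, so only their size is described.

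The variance of log2 Cy5 over the mice was compared with that of log2 Cy3, which is 1 pool on all arrays. Cy3 holds the spread of arrays and scans but not that of separate RNA isolations, so a higher variance in Cy5 can come from the mice or from the handling of their samples. It was higher in Cy5 for 9 of the 10 genes (Pitman-Morgan test, adjusted p between 4.3e-08 for *Gpnmb* and 4.89e-05 for *Cd63*), against 54.4% of expressed probes. The SD of *Trem2* was 1.39 in Cy5 and 0.09 in Cy3, that of *Tyrobp* 0.96 and 0.04, and that of *Fabp5* 0.42 and 0.05. *Lgals3* did not pass, with an SD of 0.69 in Cy5 and 0.51 in Cy3 and an adjusted p of 0.0556. Its Cy3 signal, although of the same pool, was 28287 to 33389 in mice 4 to 7 and 46999 to 72195 in the other 6 mice, while its Cy5 signal was 129991 to 197968 and 36760 to 92948. Part of the spread of the *Lgals3* log2 ratio thus lies in the pool's colour, and the cause was not tested.

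**Figure D2:**
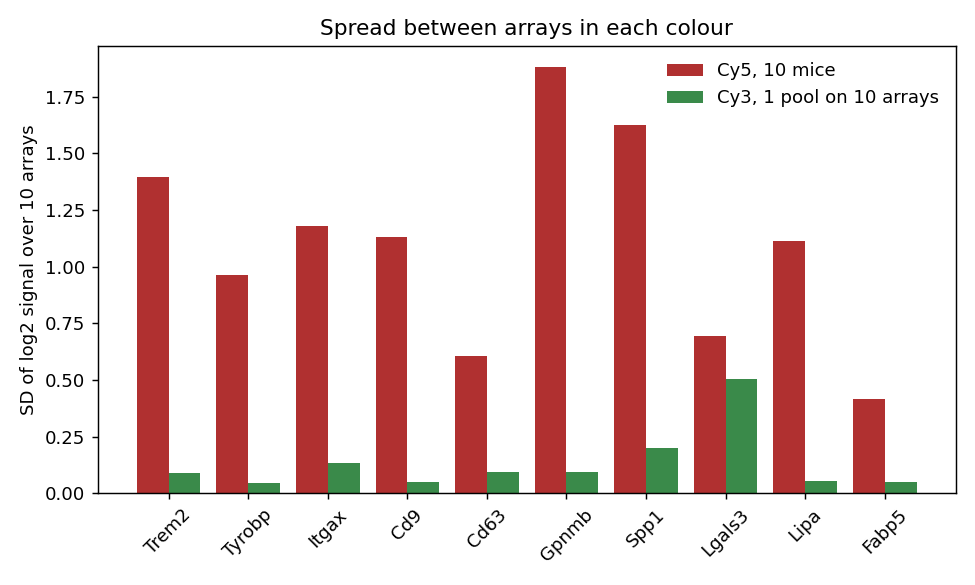
SD of the log2 signal over 10 arrays for each gene, in Cy5 (10 mice, red bars) and in Cy3 (1 pool on every array, green bars). The Cy5 bar is the taller of the pair for every gene, and *Lgals3* has the highest Cy3 bar, 0.51.

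The slide was the only batch that the files give. No member passed the test for a difference between slides (limma F test, adjusted p of 0.697 for all 10 genes), and the share among expressed probes was 0%. With 2 mice per slide this test has little power and could miss a difference. Unadjusted, 1137 of 27718 probes had a p under 0.05, *Fabp5* (0.0232), *Lgals3* (0.047) and *Itgax* (0.0476) among them. The unadjusted p of the other members reached from 0.0513 (*Trem2*) to 0.156 (*Cd9*).

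The next question was how closely the other 9 genes followed the receptor over the mice. With limma, the log2 ratio of each probe was regressed on that of *Trem2*, so that a slope of 1 means an equal change on the log2 scale. All 9 rose with *Trem2* over the 10 mice, against 22.4% of all probes, while 25.0% of probes fell. *Gpnmb* had the steepest slope of the 9, 1.32 ± 0.07 (SE, adjusted p of 6.71e-08), and *Spp1* had a slope of 0.98 ± 0.05 (adjusted p of 8.69e-08). In the log ratio of the scanner software the slope of *Spp1* was 1.195 ± 0.074. *Tyrobp* had a slope of 0.67 ± 0.03 (adjusted p of 3.46e-08), so it moved less than its receptor. The shallowest were *Cd63*, at 0.44 ± 0.03, and *Fabp5*, at 0.27 ± 0.03 (adjusted p of 2.2e-05). *Lgals3*, *Cd9*, *Lipa* and *Itgax* lay between 0.72 and 0.80, where the slope of *Lgals3* includes the spread of the pool's colour given above. The median slope over all probes was 0.00.

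Over the 6 mice without mice 4 to 7, 8 of the 9 genes still rose with *Trem2*, against 2.02% of probes that rose and 0.603% that fell. The slope was 0.92 ± 0.08 for *Gpnmb* (adjusted p of 0.00202), 0.53 ± 0.05 for *Tyrobp* (adjusted p of 0.00275) and 0.67 ± 0.05 for *Lgals3* (adjusted p of 0.00117). *Fabp5* did not pass, with a slope of 0.19 ± 0.06 and an adjusted p of 0.176. All 9 slopes were lower over 6 than over 10 mice. The difference between both sets of slopes was not tested.

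**Figure D3:**
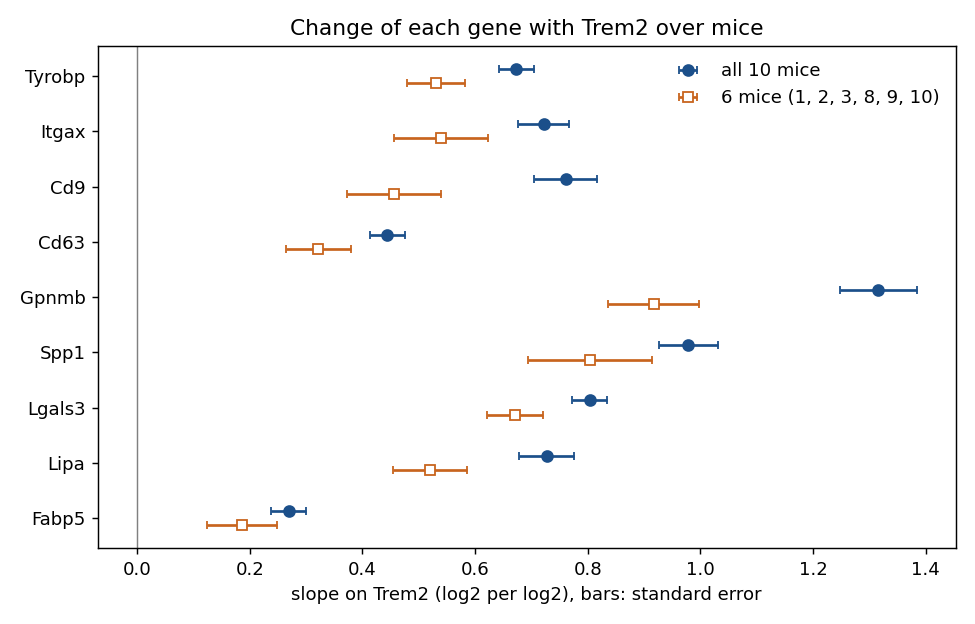
Slope of each gene's log2 ratio on that of *Trem2*, with its standard error as bars, over all 10 mice (filled circles) and over 6 mice (open squares). All slopes lie above 0, from 0.27 (*Fabp5*) to 1.32 (*Gpnmb*) over 10 mice, and each 6-mouse slope lies to the left of its 10-mouse slope.

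Whether the members moved with macrophage genes in general was read from a score, the mean log2 ratio of 12 pan-macrophage genes that share none with the members. The score was 0.55 to 0.79 in mice 4 to 7 and -0.83 to 0.09 in the other 6. All 10 members rose with it over 10 mice, against 22.9% of probes that rose and 25.9% that fell. *Trem2* changed by 2.37 ± 0.10 per unit of the score (adjusted p of 1.41e-08), *Gpnmb* by 3.14 ± 0.17, *Tyrobp* by 1.61 ± 0.07, and *Fabp5* by 0.64 ± 0.08 (adjusted p of 2.04e-05). *Fabp5* was the only member with a slope below 1. A slope of 1 equals the mean change of the 12 genes, whose SDs ran from 0.14 (*Itgam*) to 1.17 (*Emr1*). Over the 6 mice, 8 of 10 members rose with the score, against 2.02% that rose and 0.906% that fell. *Cd9* (slope of 1.13, adjusted p of 0.058) and *Fabp5* (0.48, adjusted p of 0.192) did not pass. Both regressions rest on the same mice and are not independent of each other.

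**Figure D4:**
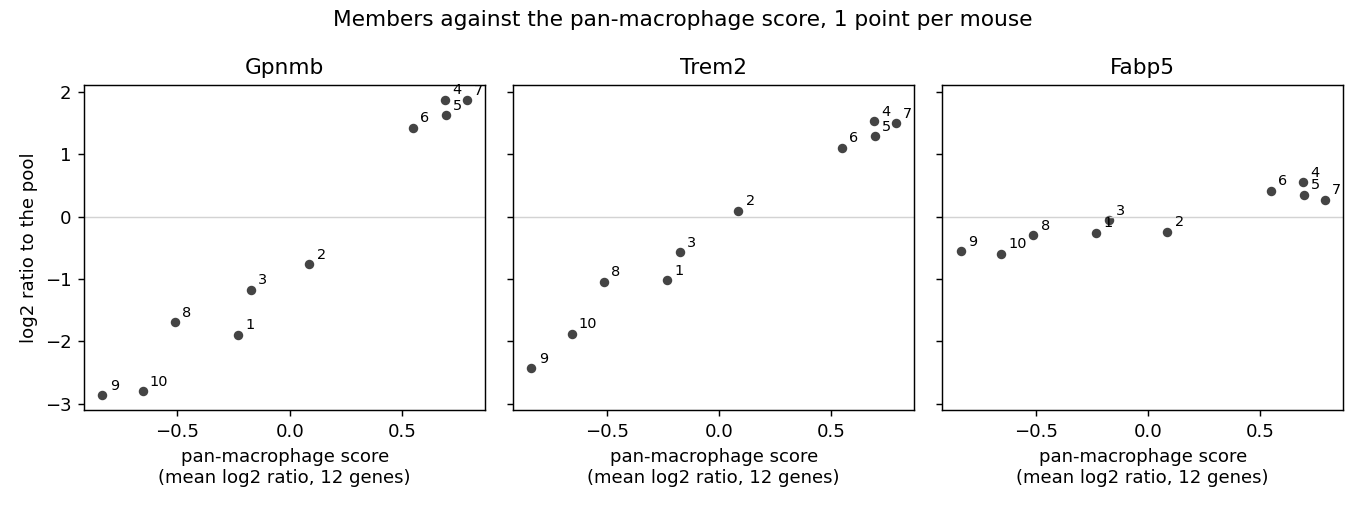
Log2 ratio of *Gpnmb*, *Trem2* and *Fabp5* against the pan-macrophage score, with 1 numbered point per mouse and a shared vertical axis. Mice 4 to 7 lie at the upper right of each panel, and the points climb most steeply for *Gpnmb* and least for *Fabp5*.

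The 12 pan-macrophage genes were next read 1 by 1 against *Trem2*, of which 11 rose over 10 mice and 8 over 6 mice, with a median slope of 0.46. Of all probes, 22.4% rose over 10 mice and 2.02% over 6 mice. *Emr1*, which codes for a surface receptor used to sort macrophages, had a slope of 0.79 ± 0.04 (adjusted p of 1.2e-07). *Cd68*, a lysosomal glycoprotein, had a slope of 0.60, and *Csf1r*, the receptor for the macrophage growth factor CSF1, 0.29. *Aif1* did not pass (slope of 0.07, adjusted p of 0.328). *Itgam*, the integrin CD11b, had the smallest SD of the list, 0.14 at its brightest probe, but its probes disagreed in size, with slopes of 0.08, 0.27 and 0.54 that all passed. The SD of *Trem2* over the mice, 1.46, was above that of each of the 12 genes, of which *Emr1* had the largest, 1.17.

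Of 31 other genes of lipid-associated macrophages that were expressed, 25 rose with *Trem2* and 4 fell, against 22.4% and 25.0% of all probes. The median slope was 0.45. Over the 6 mice 20 rose and none fell. *Plin2*, which coats lipid droplets, rose with a slope of 0.54 ± 0.04 (adjusted p of 6.43e-07). *Cd5l*, a secreted protein of macrophages, had the largest SD of the list, 1.60, and a slope of 1.03 ± 0.11 (adjusted p of 1.62e-05). The 4 that fell were *Fabp4*, the fatty acid carrier of adipocytes (slope of -0.72, adjusted p of 2.95e-05), *Apoe* (-0.12), *Lpl*, the lipase that frees fatty acids from lipoproteins (-0.09), and *Acp5* (-0.20). *Lpl* had an SD of 0.11 in Cy5 and 0.10 in Cy3. *Fabp4* had log2 ratios of -2.08 to -0.93 in mice 4 to 7 and -0.17 to 0.80 in the other 6, while *Fabp5* was highest in mice 4 to 7. The *Fabp4* signal varied as much in the pool's colour as in that of the mice (SD of 0.58 in Cy5 and 0.57 in Cy3), so that this difference is not of the mouse signal alone. *Cst7*, with the smallest SD of the list (0.14), and *Npc2* did not pass, and *Dcstamp* was not found among the array's symbols.

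The list for TREM2 and TYROBP signalling holds kinases and other proteins downstream of TYROBP, and also related receptors, the adaptor *Hcst*, proteases that shed TREM2 and genes of the *Ms4a* family. Of its 14 expressed genes, 13 rose with *Trem2* and 1 fell, against 22.4% and 25.0% of all probes. The median slope was 0.29. Among those that rose, *Card9* was dim, well above background on 6 arrays in Cy5 and on 1 in Cy3. *Treml4* did not pass the test for a higher variance in Cy5 (Pitman-Morgan adjusted p of 0.206). *Syk*, the kinase recruited by TYROBP, had a slope of 0.43 ± 0.03 (adjusted p of 1.27e-06), and *Vav1*, an exchange factor downstream of it, 0.54 ± 0.03 (adjusted p of 1.92e-07). *Plcg2*, the phospholipase of the pathway, changed less, at 0.17 ± 0.03 (adjusted p of 3.79e-04). *Ms4a7* had the largest SD of the list, 1.31, and a slope of 0.89. *Trem1*, another receptor that uses TYROBP, fell with a slope of -0.08 ± 0.02 (adjusted p of 0.0149) and had the smallest SD, 0.14, with a Cy5 signal that varied no more than the pool (SD of 0.11 in Cy5 and 0.13 in Cy3). Over the 6 mice 5 rose and none fell. *Treml2* was not expressed.

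Of 6 receptors and partners of the secreted members and of integrins, 4 rose with *Trem2* over 10 mice and 3 over 6 mice. The shares of all probes that rose were 22.4% and 2.02%. The median slope of the list was 0.27 over 10 mice. *Itgb2*, the partner chain of *Itgax*, had a slope of 0.67 ± 0.05 (adjusted p of 8.12e-07). *Itgav*, a chain of the integrin that binds osteopontin, had a slope of 0.32, *Itgb3*, its partner chain, 0.22, and *Cd44*, another osteopontin receptor, 0.52 at the brightest of 3 probes (0.15 and 0.50 at the others). *Lgals3bp*, which binds galectin-3, did not pass over 10 mice (slope of -0.14, adjusted p of 0.237) but had a slope of 0.44 over the 6 mice (adjusted p of 0.00751). *Sdc4* did not pass over either set, with a slope of -0.01 over 10 mice.

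Of 13 tested genes of resident fat macrophages, 3 rose with *Trem2* and 9 fell, against 22.4% and 25.0% of all probes. The share that rose is near that of all probes. The median slope was -0.29. *Lyve1*, a hyaluronan receptor, had log2 ratios of -1.61 to -0.49 in mice 4 to 7 and -0.03 to 0.64 in the other 6. Its slope was -0.47 ± 0.07 (adjusted p of 1.58e-04), and that of the haemoglobin scavenger receptor *Cd163* was -0.17 (adjusted p of 0.00123). *Mrc1*, the mannose receptor, rose, with a slope of 0.19 (adjusted p of 0.00353), as did *Folr2* and *Pf4*. Over the 6 mice none rose, and *Cd209f* (slope of -0.51, adjusted p of 0.00921) was the gene that fell. *Clec10a*, a lectin, had the smallest SD of the list, 0.22, and did not pass (slope of 0.06, adjusted p of 0.309). The signal of *Cd163* had an SD of 0.29 in Cy5 and 0.22 in Cy3 (Pitman-Morgan adjusted p of 0.506). That of *Timd4*, which also fell, had 0.19 and 0.18 (adjusted p of 0.905). Both were dim, with Cy5 well above background on 7 arrays (*Cd163*) and 5 arrays (*Timd4*). *Retnla* was left out because the only spot of its probe was marked as an outlier on 1 array.

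Markers of other cells were read against the same background, in which 22.4% of all probes rose and 25.0% fell with *Trem2* over 10 mice. All 8 adipocyte genes fell with *Trem2* over 10 mice and 2 over the 6 mice, with a median slope of -0.73. *Adipoq*, which codes for adiponectin, had log2 ratios of -2.78 to -1.63 in mice 4 to 7 and -0.09 to 0.81 in the other 6, and *Cfd*, which codes for adipsin, had -4.69 to -3.36 and -0.70 to 1.44. The slopes of *Plin1* and *Cidec*, proteins of the lipid droplet, were -0.72 and -0.74, and that of the lipase *Pnpla2*, with the smallest SD of the list, was -0.48. The mean log2 ratio of the 8 genes was -2.51 to -1.46 in mice 4 to 7 and -0.14 to 0.67 in the other 6. The mice with the highest values of the 10 members were thus those with the lowest values of the adipocyte genes, and the part of tissue composition in the members' values was not tested.

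Of the 6 mast cell genes, 4 rose with *Trem2* over 10 mice, among them the carboxypeptidase *Cpa3* (slope of 1.00 ± 0.14, adjusted p of 9.81e-05), and none passed over 6 mice. The protease *Mcpt4* had a slope of 0.65, and the receptor *Kit*, with the smallest SD, did not pass (-0.08). The median slope of the list was 0.53. The list's mean was 0.06 to 1.42 in mice 4 to 7 and -0.66 to -0.02 in the other 6.

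Of the dendritic cell list, 3 of 6 expressed genes fell and none rose, with a median slope of -0.08, and *Xcr1* and *Itgae* were not expressed. *Cd209a* (-0.52), *Zbtb46* (-0.08) and *Batf3* (-0.08) fell, while *Flt3* (-0.01) and *Clec9a* (-0.10) did not pass. The list's mean was -0.32 to -0.13 in mice 4 to 7 and 0.02 to 0.38 in the other 6. Of 7 neutrophil genes 1 rose and 1 fell (median slope of -0.03). *S100a8* (0.02), *S100a9* (-0.16), *Ly6g* (0.03) and *Camp* (-0.03) did not pass. Of 5 lymphocyte genes 2 fell (median slope of -0.11), among them *Cd3g* (-0.26), while *Cd3e* (-0.05), *Cd4* (0.02) and *Ms4a1* (-0.11) did not pass. Of 6 stromal genes 3 rose, *Pdgfra* (0.14), *Col1a1* (0.40) and *Lum* (0.46), and 2 fell, *Dcn* (-0.13) among them (median slope of 0.02). With the shares among all probes this high, such counts of few genes are no result about the dendritic, neutrophil, lymphocyte and stromal lists.

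Endothelial genes fell in 5 of 6 (median slope of -0.24), among them *Pecam1* (-0.21) and *Cdh5* (-0.50). *Kdr* did not pass at its brighter probe (-0.01) but fell at the other (-0.52, adjusted p of 4.38e-06). Mesothelial genes fell in 6 of 7 (median slope of -0.40), with *Msln* at -0.59, *Upk3b* at -0.44, *Upk1b* at -0.33 and *Wt1* at -0.25, and *Krt8* did not pass (-0.36, adjusted p of 0.203). Of 4 red blood cell genes 3 fell (median slope of -0.45), *Hbb-b1* (-0.48), *Hba-a1* (-0.64) and *Alas2* (-0.42), and *Slc4a1* (-0.06) did not pass. None of these lists had a gene that rose. The 3 sperm genes *Prm1* (-0.05), *Prm2* (-0.02) and *Tnp1* (0.07) did not pass over 10 mice. Over the 6 mice *S100a8* (slope of 0.71, adjusted p of 0.0392), *Lum* (0.42, adjusted p of 0.0129) and *Tnp1* (0.43, adjusted p of 0.0468) rose with *Trem2*. Mouse 2 had the highest *Trem2* of these 6 (0.10) and the highest mean of the sperm genes (-1.02, against -2.67 to -2.10 in the rest). The slope of *Tnp1* may therefore rest largely on mouse 2. Of 108 genes of all lists that rose or fell with *Trem2* over 10 mice, 10 did not pass the test for a higher variance in Cy5 than in Cy3: *Itgam*, *Lpl*, *Fabp4*, *Trem1*, *Treml4*, *Cd163*, *Timd4*, *Zbtb46*, *Mpo* and *Dcn*. The part of these cells in the members' values was not tested.

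**Figure D5:**
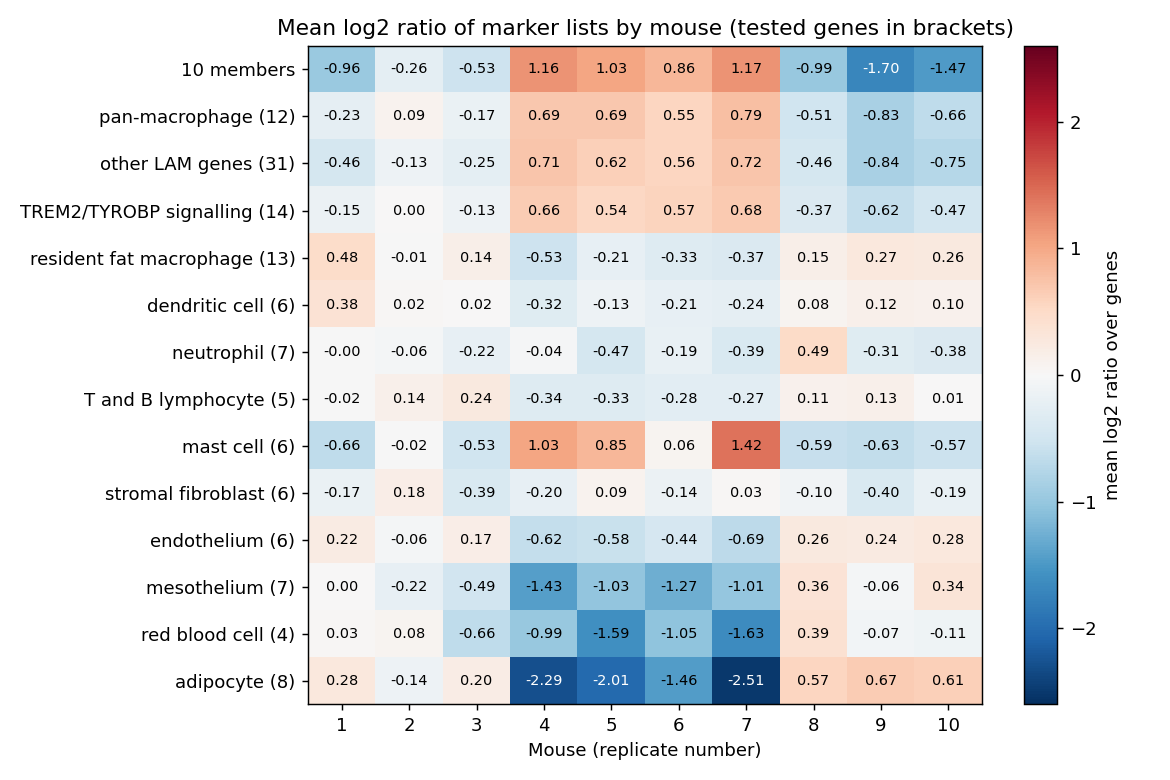
Mean log2 ratio of the 10 members and of 13 marker lists (rows, number of tested genes in brackets) in each mouse (columns), where LAM stands for lipid-associated macrophage. The rows of the members, of pan-macrophage, other LAM and signalling genes and of mast cells lie above 0 in mice 4 to 7, while the resident fat macrophage row lies below 0 there (-0.53 to -0.21) and the adipocyte mean reaches -2.51 in mouse 7.

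The genes whose pattern over the 10 mice lay closest to *Trem2* were taken from 17128 candidate probes. These were well above background in both colours on all arrays, belonged to no member and had a gene symbol other than an accession or a locus number. The measure was the root mean square difference of the log2 ratios after subtracting each gene's mean, so that lower is closer. The closest were *Atp6v0d2*, a subunit of the proton pump (0.17), *Rgs1*, a regulator of G protein signalling (0.19), *Nceh1*, a cholesteryl ester hydrolase (0.20), *Adam8*, a surface protease (0.20), and *Cd72*, a lectin-like receptor (0.21). Among the members, *Spp1* (0.24) and *Lgals3* (0.30) were the closest to *Trem2*. *Cd63* (0.78) and *Fabp5* (1.02), which had the narrowest ranges, were the farthest. The measure depends on the size of changes as well as on the order of mice, so a narrow range alone places a gene far. In the log ratio of the scanner software *Lgals3* was closer to *Trem2* than *Spp1*. Part of the *Lgals3* spread lies in the pool's colour. *Atp6v0d2* had log2 ratios of -0.84, 0.08, -0.53, 1.60, 1.41, 1.31, 1.44, -0.89, -1.88 and -1.56 in mice 1 to 10 and ranked the mice in the same order as *Trem2*, from mouse 4 at the top to mouse 9 at the bottom. These are values of the dimmer of its 2 probes, which had a slope of 0.91 on *Trem2*, against 1.07 at the brighter.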

How the data were processed

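RNA of eWAT of 10 mice was measured on 10 two-colour Agilent arrays (5 slides of 2). The authors deposited scanner files made with Feature Extraction 10.7.3.1, per the labels, whose intensity values are spot and local background brightness per dye, and a log10 ratio after the software's own correction. The deposited table of log2 values covers 30733 spots and follows the Cy5 median signal of each array (r of 0.994 to 0.999), with equal column medians of 8.52. How it was normalized is not given in the sources used here, and it served as an alternative for differences between mice.

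Mean signals were corrected with normexp (offset 50) and normalized by loess within arrays (limma 3.58.1, R 4.3.3), where control spots carried no weight. Control and outlier spots were then left out, and arrays were normalized to each other by Aquantile. A probe with several spots kept the average of its other spots, and 1 without a value on an array was not tested. The 59305 other spots gave 55681 probes, of which 27718 were tested (Cy5 well above background on at least 5 arrays). A gene with several probes was represented by the brightest. Variances were compared with the Pitman-Morgan test, and slides and slopes with limma (lmFit, eBayes). Adjusted p-values are Benjamini-Hochberg over all probes tested, with a threshold of 0.05. A fit was restricted to 1 cluster of mice only where the regressor had a gap of 0.4 of its range, and the largest gaps were 0.25 (*Trem2*) and 0.28 (score). Scripts were tested on simulated data. Python 3.11.15 was used for sequences and figures.

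The text names all members, the first 3 expressed genes of each marker list with those of largest and smallest SD, and the 5 genes likest *Trem2*. Other names were chosen after their values were seen. Members and lists were chosen with earlier results of these data known. The number of arrays limits the precision.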

Additional observations from a re-analysis of the deposited data

Results flagged for a closer look

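In 10 mice, a gene was singled out where the gap between the highest or lowest mouse and its neighbour, as a share of the whole range, was above Dixon's critical value. None of the 10 members met this, the largest share among them being 0.14. Of 144 genes checked, 7 did (4.86%), where about 5% would be flagged in independent, normally distributed values. The genes share the same 10 mice, so the flags are not independent of each other, and their number does not tell whether they arose by chance.

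The 7 were the neutrophil genes *S100a9* (0.63, mouse 8) and *Retnlg* (0.67, mouse 8), the T cell gene *Cd3e* (0.471, mouse 3), the mast cell gene *Hdc* (0.61, mouse 2), the epithelial keratin *Krt8* (0.512, mouse 2) and the sperm genes *Prm1* (0.57, mouse 2) and *Prm2* (0.77, mouse 2). The flags thus gathered in few mice, mainly mouse 2. The mean log2 ratio of the sperm genes was -1.02 in mouse 2 and -2.79 to -2.10 in the others. The cause was not tested.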

How the results depend on the processing

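All 9 members rose with *Trem2* and all 10 with the pan-macrophage score under every alternative over 8 to 10 mice, and no direction reversed. The number of probes that varied more in Cy5, 15082, was 9826 with median centring, 4626 without normalization between arrays, 10007 with the slide as a block and 13478 to 14446 without single mice. *Fabp5* was lost without normalization between arrays (adjusted p of 0.0927), and *Lgals3* passed without mouse 5 (adjusted p of 0.046). Probes that passed the slide test numbered 0, and 0 to 59 without single mice, the 59 without mouse 1. Probes that followed *Trem2*, 13125, were 7894 with median centring, 7991 with the slide as a block, 726 over the 6 mice and 11414 to 13970 without single mice. Those that followed the score, 13501, were 8497 with the slide as a block, 812 over the 6 mice and 11763 to 14225 without single mice. The cause was not tested. With median centring, the share that rose was 62.3% in place of 47.2% (*Trem2*) and 77.0% in place of 46.9% (score), and the median log2 ratio of all probes was 0.32 in place of 0.01. Mean log2 ratios of *Cd63* and *Fabp5* became 0.78 and 0.70, so their distance from 0 depends on the centring. Averaging probes of a member changes nothing, since each has 1 probe, and the fit over all mice in place of 1 cluster was already the one reported. No paired comparison of conditions was possible because there is only 1 group.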
